A study of Mus musculus with 2 samples.

Results

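The miR-15/16 clusters are 2 short stretches of mouse DNA that each hold a miR-15 hairpin and a miR-16 hairpin. They were taken as the rows whose Ensembl identifiers belong to Mir15a, Mir16-1, Mir15b and Mir16-2 in the mouse mm10 annotation, which gave 4 loci of the 1973 in the count tables. The rule went by names and used no measured value, but it was set with earlier results of these data known. Total RNA of the forebrains of 2 mouse pups of strain B6NCrl, pup 3 and pup 1, was used for 1 microRNA library each, on postnatal day 0. Both pups carry the same donor entry, the sex was not collected, and no treatment, mutation or other tissue was compared. Each forebrain is a mixture of cell types. Values are reads on the strand of the locus, given as CPM (counts scaled to a total of 1000000) or as the share of all such reads in the library.

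MicroRNAs are cut from hairpin precursors by Drosha and Dicer and repress messenger RNAs that pair with the seed, bases 2 to 8 counted from the 5′ end. The miR-15/16 family is known for restraining the cell cycle and cell survival, with cyclins and Bcl2 among its known targets. In human chronic lymphocytic leukaemia the DLEU2 cluster is often deleted, and in mouse heart miR-195, of the same family, rises as muscle cells leave the cell cycle. Dleu2 is a long noncoding RNA, and Smc4 encodes a subunit of condensin, the complex that compacts chromosomes for division.

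The mature sequences show what the loci share and where they differ. All 4 loci had mature entries in the RefSeq table for build GRCm38.p6, and 3 of them a hairpin entry. The strands from the 5′ arm are given first, with the seed in capitals, because the common seed defines the family.
mmu-miR-15a-5p: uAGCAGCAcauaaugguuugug
mmu-miR-15b-5p: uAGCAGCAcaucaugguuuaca
mmu-miR-16-5p: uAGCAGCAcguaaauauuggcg
mmu-miR-195a-5p: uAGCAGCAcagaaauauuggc
mmu-miR-497a-5p: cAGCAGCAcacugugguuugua
mmu-miR-322-5p: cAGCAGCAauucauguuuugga
mmu-miR-503-5p: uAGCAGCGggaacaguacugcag
The seed AGCAGCA was common to miR-15a, miR-15b, miR-16, miR-195a, miR-497a and miR-322, and miR-503 ended its seed differently. Of the 22 bases of miR-15a-5p, 18 were the same in miR-15b-5p, including the first 11, with the substitutions A12C, G20A, U21C and G22A (miR-15a base, position from the 5′ end, miR-15b base). Against miR-16-5p, 16 of the 22 bases of miR-15a-5p were the same. The strands from the 3′ arm were less alike, with 12 of 22 bases the same in each pair, and they carry other seeds.
mmu-miR-15a-3p: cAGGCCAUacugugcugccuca
mmu-miR-15b-3p: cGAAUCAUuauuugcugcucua
mmu-miR-16-1-3p: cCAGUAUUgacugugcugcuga
mmu-miR-16-2-3p: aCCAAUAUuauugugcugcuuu

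The miR-16 loci give rise to the same 5′ strand, and this decides which of their reads can be counted. The hairpins are shown with their longest common run of 23 bases in capitals.
Mir16-1: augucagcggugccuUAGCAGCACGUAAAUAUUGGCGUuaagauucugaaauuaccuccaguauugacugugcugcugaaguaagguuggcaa
Mir16-2: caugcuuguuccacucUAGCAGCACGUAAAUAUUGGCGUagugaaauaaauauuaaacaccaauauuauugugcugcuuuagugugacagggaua
The whole mature miR-16-5p, 22 bases long, lies within that run, so a read of exactly this strand matches both loci. The tables count reads that map to several places in a row of their own, which held 44.1% of all reads in pup 3 and 42.2% in pup 1. Counts at Mir16-1 and Mir16-2 are therefore reads that were placed at 1 locus, and the tables do not split them by arm or length. The mature strands of miR-15a and miR-15b are each listed for 1 locus in the RefSeq table, so that table shows no such loss for them. Whether their reads match other places in the genome was not tested.

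Both clusters lie within introns of their hosts, on the host strand. Mir15a (ENSMUSG00000093007.1, chromosome 14, 61632027 to 61632110) and Mir16-1 (ENSMUSG00000092995.1, chromosome 14, 61631880 to 61631972) lie on the minus strand, 54 bases apart. Their start is 50.3 kb from the 5′ start of Dleu2 (chromosome 14, 61602839 to 61682373), in intron 4 in 7 and in intron 3 in 1 of the 8 Dleu2 transcripts that span them. An exon of another Dleu2 transcript, which does not span the hairpin, overlaps the last 13 bases of Mir16-1. Mir15b (ENSMUSG00000065580.1, chromosome 3, 69009772 to 69009835) and Mir16-2 (ENSMUSG00000065606.1, chromosome 3, 69009902 to 69009996) lie on the plus strand, 66 bases apart. Their start is 5.03 kb from that of Smc4 (chromosome 3, 69004738 to 69034623), in intron 5 in 4 and in intron 3 in 1 of the 5 transcripts that span them. In the annotation no gene other than the host overlaps any of the 4 hairpins. Coordinates are those of assembly GRCm38.

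**Figure D1:**
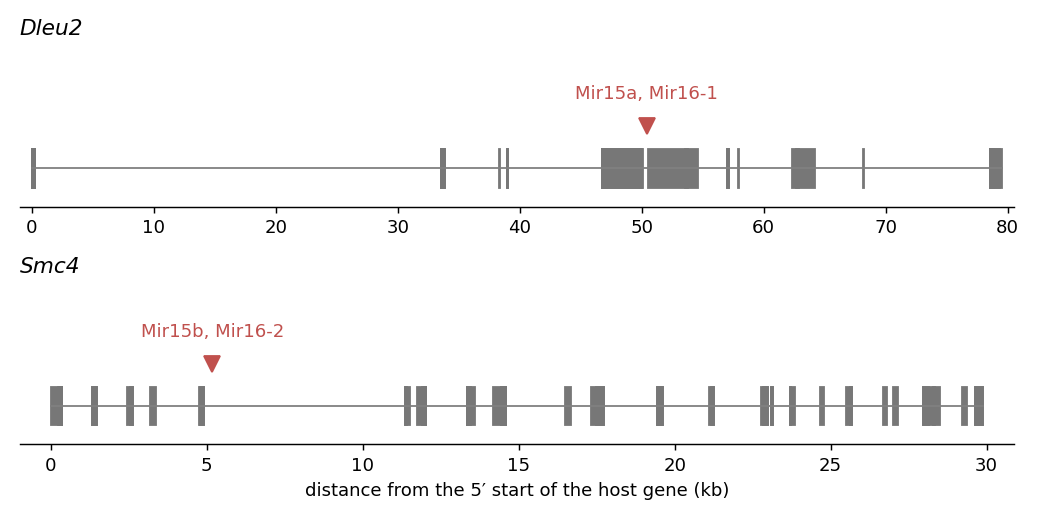
Position of the miR-15/16 loci in their host genes, Dleu2 (upper map) and Smc4 (lower map), by distance from the 5′ start of the host in kb; grey boxes are exons of any annotated transcript and triangles mark the miRNA pair. The Dleu2 pair begins 50.3 kb into its host and the Smc4 pair 5.03 kb into its host, and the maps have different scales.

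The depth was 2427066 assigned reads in pup 3 and 2742746 in pup 1. A count of 0 allows up to 3 counts, which is 1.24 CPM in pup 3 and 1.09 CPM in pup 1. Such limits and all intervals cover counting error within 1 library only. No molecular identifiers are given, so reads copied from 1 molecule could not be set apart, and intervals and p-values may be too narrow. Of the neural marker loci, 5 of 8 with a row reached 10 counts in each library, and the 8 summed to 39571 CPM in pup 3 and 43365 CPM in pup 1. Most of this came from Mir137 (23308 CPM in pup 3, 28264 in pup 1) and Mir128-1 (11337 and 10765 CPM). Mir128-2 had 4309 CPM in pup 3 and 3858 CPM in pup 1, and Mir9-3 604 and 467 CPM. The other loci of the list with a row added little to the sums. Mir124a-2 had 1.65 CPM in pup 3 and 1.82 CPM in pup 1, and Mir124a-3 0.824 and 1.09 CPM. Vessel markers were also high, at 39382 CPM in pup 3 and 34960 CPM in pup 1, with 3 of 3 loci detected. White blood cell (2 of 2 with a row detected) and red blood cell markers (3 of 3) summed to 355 and 71.3 CPM in pup 3, against 328 and 88.2 CPM in pup 1. Liver Mir122 had 63.0 CPM in pup 3 and 48.1 CPM in pup 1. The 3 muscle markers summed to 4.53 CPM in pup 3 and 7.29 CPM in pup 1, with Mir1a-1 and Mir133a-1 at 0. Mir133a-2 had 0 counts in both pups as well. Numbered loci of this kind may share a mature strand, as the miR-16 loci do, and such reads would be counted at no locus. The 0 values therefore cannot show whether muscle was present. The same limit applies to the low values at Mir124a-2 and Mir124a-3. Whether these loci lost reads in this way was not tested. The part of other cell types in the values of the miR-15/16 loci was not tested, and in whole tissue fewer cells of a type and less RNA per cell cannot be told apart.

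The Dleu2 cluster held most of the reads placed at the miR-15/16 loci in both pups. All 4 loci reached 10 counts in each library, as did 331 of the 1973. Together they held 1.49% of the counts in pup 3 and 1.20% in pup 1. Mir15a and Mir16-1 made up 84.5% of these reads in pup 3 and 81.3% in pup 1, and Mir15b and Mir16-2 the rest.

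Mir15a, the first hairpin of the Dleu2 pair, had 19570 counts (8063 CPM) in pup 3 and 15804 counts (5762 CPM) in pup 1. As a share of its library it held 0.806% in pup 3 (interval 0.795 to 0.818%, Clopper-Pearson, exact, at 95%) and 0.576% in pup 1 (0.567 to 0.585%). With a mean of 6913 ± 1627 CPM (SD, n = 2, as for every mean ± SD here) it stood at rank 27 of all loci. Mir16-1, the next hairpin on the same host transcript, had 11040 counts (4549 CPM) in pup 3 and 10867 counts (3962 CPM) in pup 1. Its mean was 4255 ± 415 CPM, at rank 41. Mir15a lay above Mir16-1 in both pups, and the values of the 2 loci did not overlap.

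Mir15b, the miR-15 hairpin in Smc4, had 3670 counts (1512 CPM) in pup 3 and 4251 counts (1550 CPM) in pup 1. Its share was 0.151% in pup 3 (95% exact interval 0.146 to 0.156%) and 0.155% in pup 1 (0.150 to 0.160%), intervals that overlap. The mean was 1531 ± 26.7 CPM, at rank 86. Mir16-2, downstream of it, had 1930 counts (795 CPM) in pup 3 and 1875 counts (684 CPM) in pup 1, with a mean of 739 ± 78.9 CPM at rank 102. The order Mir15a, Mir16-1, Mir15b, Mir16-2 held in each pup, and no neighbours in it overlapped.

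**Figure D2:**
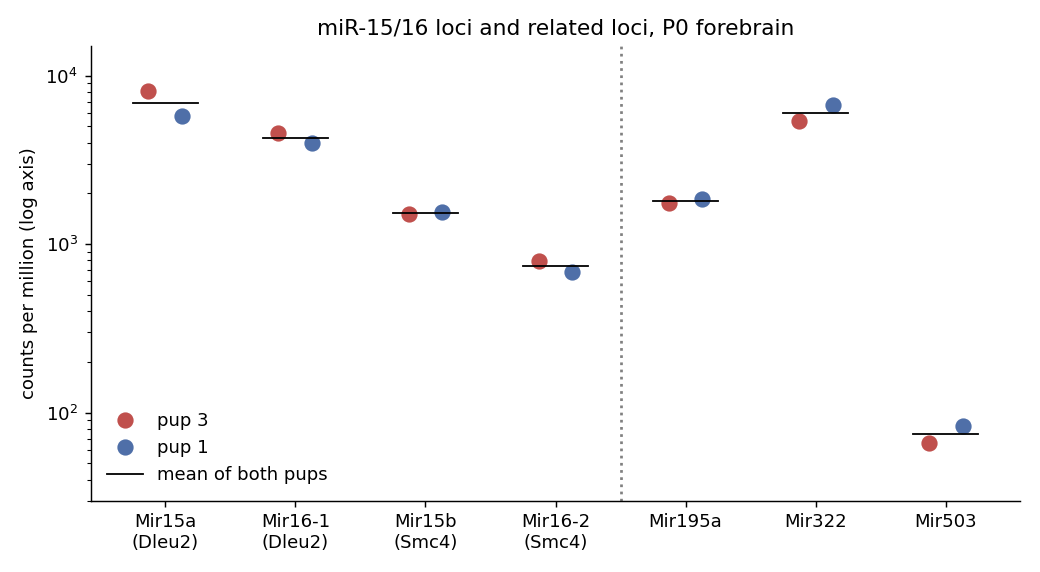
Level of the 4 miR-15/16 loci (host in brackets) and of 3 loci with the same or a similar seed, in CPM on a log axis; each point is 1 forebrain and the line is the mean of pup 3 and pup 1. The Dleu2 loci average 6913 and 4255 CPM and the Smc4 loci 1531 and 739 CPM, with Mir322 at 6034, Mir195a at 1808 and Mir503 at 74.9 CPM.

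The clusters were compared within each library, where depth cancels. The Dleu2 cluster had 30610 counts in pup 3 against 5600 for the Smc4 cluster, and 26671 in pup 1 against 6126. This is 5.47-fold in pup 3 (95% exact interval 5.31 to 5.63) and 4.35-fold in pup 1 (4.23 to 4.48). Reads that match both miR-16 loci are in the counts of neither cluster. On the log2 scale the mean was 2.29 ± 0.23, so the difference between the clusters was 9.85 times the SD between pups. An exact permutation test that flips the sign of each pup's log2 ratio cannot give a two-sided p below 0.5 with 2 animals, so no p is given. Ligation and amplification favour some sequences in small RNA libraries, so a fold of reads between loci need not be a fold of RNA. How far such bias enters these folds was not tested.

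The 2 kinds of locus gave the same direction and differed in how alike the pups were. Mir15a had 5.33 times the counts of Mir15b in pup 3 (95% exact interval 5.15 to 5.53) and 3.72 times in pup 1 (3.59 to 3.85), intervals that do not overlap. Mir16-1 had 5.72 times the counts of Mir16-2 in pup 3 (5.45 to 6.01) and 5.80 times in pup 1 (5.52 to 6.09), intervals that overlap almost wholly. As log2 ratios, these were 2.15 ± 0.37 for the miR-15 loci and 2.53 ± 0.013 for the miR-16 loci. In cluster shares, Dleu2 loci held 1.26% in pup 3 and 0.972% in pup 1, with non-overlapping exact intervals of 1.25 to 1.28% and 0.961 to 0.984%. The Smc4 loci held 0.231% in pup 3 and 0.223% in pup 1, with exact intervals of 0.225 to 0.237% and 0.218 to 0.229% that overlap.

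Within each cluster the miR-16 locus had fewer counts than the miR-15 locus. Mir16-1 had 0.564 times the counts of Mir15a in pup 3 (95% exact interval 0.551 to 0.577) and 0.688 times in pup 1 (0.671 to 0.705). Mir16-2 had 0.526 times the counts of Mir15b in pup 3 (0.497 to 0.556) and 0.441 times in pup 1 (0.418 to 0.466). The ratio was thus lower in pup 3 than in pup 1 in the Dleu2 cluster and higher in pup 3 in the Smc4 cluster. In means of log2 ratios the clusters had −0.68 ± 0.20 and −1.05 ± 0.18. Since reads that match both miR-16 loci are in neither count, these ratios do not give the amount of mature miR-16 relative to mature miR-15.

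**Figure D3:**
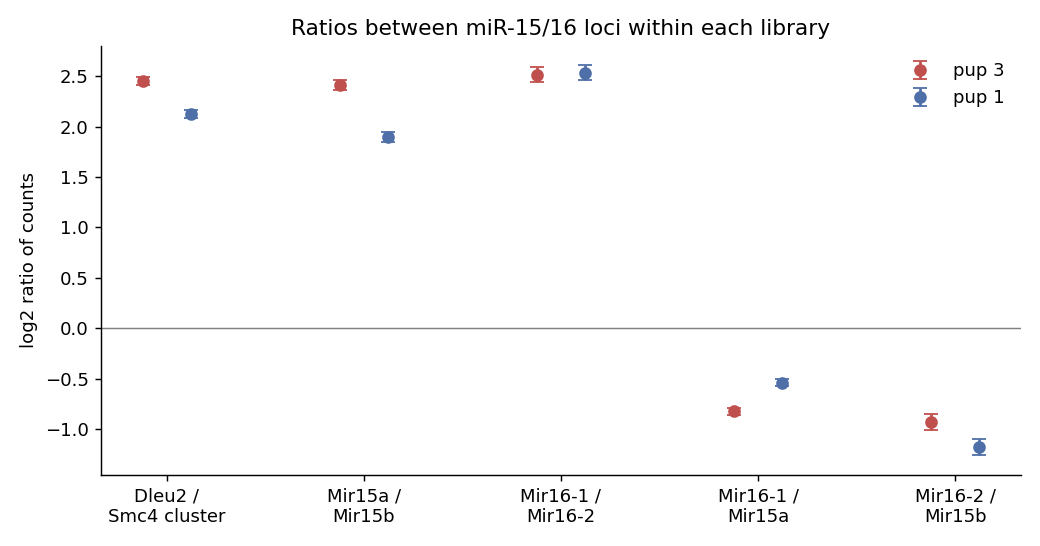
Log2 ratios of counts between miR-15/16 loci within the library of pup 3 and of pup 1; bars are 95% exact intervals and cover counting error only. The ratio of Mir16-1 to Mir16-2 is 2.52 in pup 3 and 2.53 in pup 1, while that of Mir15a to Mir15b is 2.41 in pup 3 and 1.89 in pup 1.

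The miR-16 counts can be set beside those of other miRNAs built the same way. In the RefSeq table, 19 miRNAs with rows here came from a pair of numbered loci with 1 mature strand in common and another of their own, miR-16 included. By the higher locus of a pair, miR-16 stood at rank 3 of the 19, after miR-128, a neuronal miRNA, and miR-181a. Over the 38 loci the median was 47.0 CPM and the range 0 to 11051 CPM. Mir16-1 stood at rank 3 and Mir16-2 at rank 9 of these. Below the median, Mir26a-1 had 12.3 CPM (rank 25) and Mir29b-1 7.01 CPM (rank 27) in the mean, and Mir365-1 and Mir196a-1 had 0 CPM. Reads of a common strand that match both loci are in none of these levels, and the length of the run in common was compared for miR-16 alone.

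The libraries of the pups were then compared at each locus by Fisher's exact test (two-sided, each locus against the rest of its library, Benjamini-Hochberg adjusted over the 400 loci with at least 10 summed counts). Each side is 1 pup, so the test compares these libraries and counts sampling error only. It called 10.2% of the tested loci higher and 46.2% lower in pup 3. Of the 4 miR-15/16 loci, 3 were called higher in pup 3 and none lower. The background median log2 ratio of CPM + 1 was −0.31. The range set to hold the middle 0.8 of the tested loci ran from −0.84 to 0.32. The median of the 4 members was 0.21.

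Mir15a had the highest ratio of the 4, with 8063 CPM in pup 3 and 5762 CPM in pup 1, a log2 ratio of 0.48 (adjusted Fisher's exact p = 3.27e-218), at rank 27 of the 400. Mir16-1 had 0.20 (adjusted Fisher's exact p = 6.87e-24), at rank 56, and Mir16-2 had 0.22 (adjusted Fisher's exact p = 8.24e-06), at rank 54. Mir15b did not pass, with −0.036 (adjusted Fisher's exact p = 0.365), at rank 107. Set against the median of the tested loci, the values were 0.80 for Mir15a, 0.51 for Mir16-1, 0.53 for Mir16-2 and 0.28 for Mir15b. Mir15a alone of the 4 lay above 0.32, the upper end of the range that holds the middle 0.8 of the tested loci. With DESeq2 size factors, which bring the median to −0.018, all 4 were called higher in pup 3, as were 24.5% of the tested loci, and Mir15b had 0.28 (adjusted exact binomial p = 8.34e-17). With TMM library sizes the median was −0.077, all 4 were called higher as were 20.5% of the tested loci, and Mir15b had 0.21 (adjusted exact binomial p = 1.87e-10). The direction at Mir15b thus depended on the scale.

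**Figure D4:**
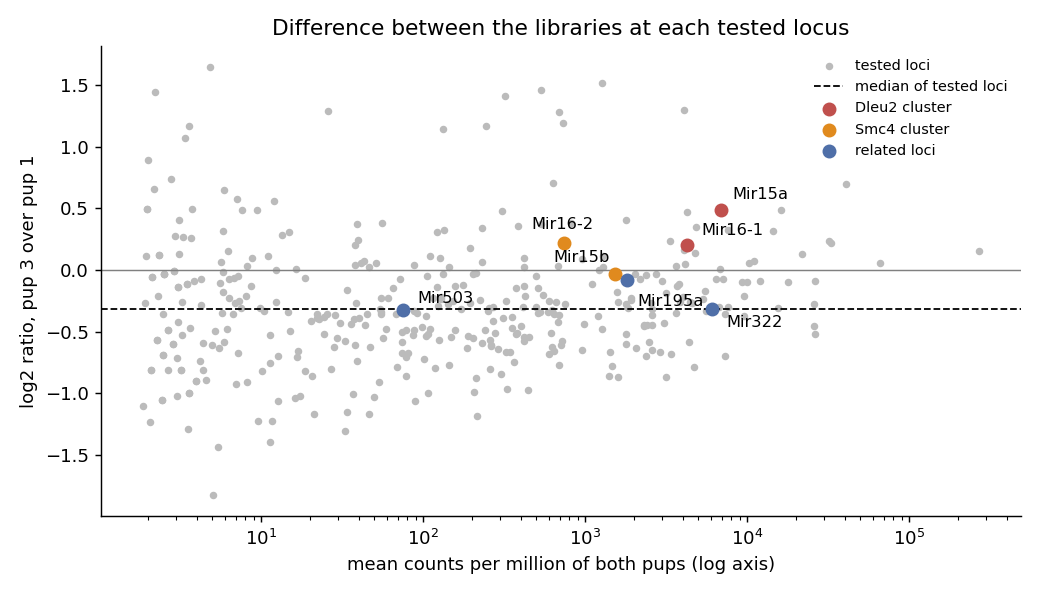
Log2 ratio of pup 3 over pup 1 (CPM + 1, library totals as the scale) against the mean CPM of both pups on a log axis for the 400 tested loci, each a point; the dashed line is their median, −0.31. Mir15a, at 0.48, Mir16-2, at 0.22, and Mir16-1, at 0.20, lie above 0, Mir15b at −0.036, and Mir322 and Mir503 on the median, at −0.32 and −0.33.

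Other loci of the seed family came from a list of paralogs. A search of the 1738 mature entries of the RefSeq table found the seed AGCAGCA at 11 loci, of which 10 had a row. Mir322, an X-linked hairpin known in mouse for its part in muscle differentiation, had 13045 counts (5375 CPM) in pup 3 and 18360 counts (6694 CPM) in pup 1. Mir322 and Mir15a changed places between the pups: Mir15a was higher in pup 3 and Mir322 higher in pup 1. At 6034 ± 933 and 6913 ± 1627 CPM they could not be ordered. Mir195a, on chromosome 11, had 1756 CPM in pup 3 and 1861 CPM in pup 1 (mean 1808 ± 74.7), above Mir15b in each pup. Mir503, the neighbour of Mir322 with a different last seed base, had 161 counts (66.3 CPM) in pup 3 and 229 counts (83.5 CPM) in pup 1.

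In the test over all 400 loci, 3 paralogs had enough counts and all 3 were called lower in pup 3, against 46.2% of the tested loci. Their log2 ratios were −0.32 at Mir322 (adjusted Fisher's exact p = 3.60e-82), −0.33 at Mir503 (0.0453) and −0.084 at Mir195a (0.00924). The ratios at Mir322 and Mir503 lie at the median of the tested loci. With TMM library sizes Mir322 was still called lower, at −0.066 (adjusted exact binomial p = 1.94e-04), and Mir503 did not pass, at −0.080 (0.738). Neither passed with DESeq2 size factors, at −0.0031 and −0.018 (adjusted exact binomial p = 0.927 and 0.972). Mir195a was called higher on both scales, at 0.17 with TMM (adjusted exact binomial p = 1.17e-07) and 0.23 with DESeq2 (1.12e-13). Mir195b had no count in either pup, nor had Mir6342, Mir6353 and Mir6419, the remaining loci with the seed. Mir497 had no row under its own name. Mir497b, annotated across it on the opposite strand, had 0 counts on its own strand in pup 3 and 1 in pup 1.

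Over the 7 loci of the 4 members and the listed paralogs that carry the seed and have a row, the Dleu2 cluster held 57.2% of the reads in pup 3 and 47.4% in pup 1. The Smc4 cluster held 10.5% in pup 3 and 10.9% in pup 1, Mir322 24.4% and 32.6%, and Mir195a 7.96% and 9.07%. The 7 loci together held 2.20% of the library of pup 3 and 2.05% of that of pup 1. Reads from both arms are in these values, and reads that match both miR-16 loci are not. They are therefore shares of the reads placed at these loci, and not of hairpins or of strands with the seed. Mir497, which carries the seed, has no row and is not among the 7.

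The loci nearest to each member in log2(CPM + 1) of both pups were also listed, by Euclidean distance over 2 libraries. For Mir15a these were Mir181a-1 (distance 0.24) and Mir411 (0.34), with 8439 and 6846 CPM in pup 3, against 6756 and 6821 CPM in pup 1. Mir16-1 lay next to Mir128-2 (0.09) and Mir20a (0.12), a hairpin known to be high in dividing cells. Mir15b lay next to Mir532 (0.12) and Mir187 (0.18), and Mir16-2 next to Mir467d (0.21) and Mirlet7c-1 (0.22). A likeness over 2 libraries rests on level and on a single difference.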

How the data were processed

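Per the labels, libraries came from total RNA of single P0 forebrains, with a listed size limit of under 30 and no unit. Each table deposited by the authors holds raw counts of reads at miRNA genes (mm10, annotation M4, per the text deposited with the files); for aligner and counter, names were not given in the sources used. Of 3 count columns, that of the gene strand was used, and 4 rows naming no gene were left out of totals. Assigned reads were 41.3% of all reads in pup 3 and 41.2% in pup 1. Names and hosts came from GENCODE M21 (1894 of 1973 identifiers matched). Mean ± SD is over both pups, taken as biological replicates because each is a separate animal; p-values cover counting error. The pups' counts differed by more than sampling noise, so no library was a copy. A single group gives edgeR's quasi-likelihood fit nothing to contrast, so Fisher's exact test was used, with a threshold of 0.05. It was tried on simulated counts with known folds and sampling noise alone, which cannot show how it behaves with variation between animals. The members, lists and tests were chosen with earlier results of these data known. Named loci were the members, the seed paralogs and the 2 nearest loci of each member. The pairs of numbered loci and the other loci with the seed were named after their values were seen. Tools were Python 3.11.15, scipy 1.17.1, R 4.3.3, edgeR 4.0.16 (TMM) and DESeq2 1.42.0 (size factors).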

Additional observations from a re-analysis of the deposited data

Results flagged for a closer look

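Reads were found in the column of the strand opposite the annotated locus, which enters only the alternatives that count both strands. The opposite strand of Mir497b had 2296 counts (946 CPM) in pup 3 and 3644 counts (1329 CPM) in pup 1, above the limit of 3 counts that a count of 0 allows. Mir497, the hairpin of miR-497a-5p with the miR-15/16 seed, is annotated on that strand within the span of Mir497b and has no row. The opposite strand of Mir15a, Mir16-1, Mir15b and Mir16-2 had 0 counts in both pups. A group of 2 libraries is too small for a check of outlying samples.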

How the results depend on the processing

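With all reads of the library as denominator, the mean shares were 0.285% for Mir15a, 0.175% for Mir16-1, 0.0631% for Mir15b, 0.0305% for Mir16-2, 0.460% for the Dleu2 cluster, 0.0936% for the Smc4 cluster and 0.326% for the 5 paralogs with a row, against 0.691, 0.426, 0.153, 0.0739, 1.12, 0.227 and 0.792% as reported. Without the most abundant locus, Mir99a, they were 0.950, 0.583, 0.210, 0.101, 1.53, 0.311 and 1.08%. With both strands counted, Mir15b held 0.150%, and the 5 paralogs with a row held 0.886%, which includes the opposite-strand reads of Mir497b. The denominator by its construction scales every share alike within a pup, and leaves ratios between loci as they are. The log2 ratio of the Dleu2 over the Smc4 cluster ranged from 2.12 to 2.45 with 1 pup left out, and that of Mir15a over Mir15b from 1.89 to 2.41. Between pups, 41 loci were called higher and 185 lower with library totals, 82 and 104 with TMM library sizes, and 98 and 83 with DESeq2 size factors. The log2 ratio of Mir15b reversed to 0.21, 0.28 and, without Mir99a, 0.021, with adjusted p from 1.87e-10 (TMM) and 8.34e-17 (DESeq2) to 0.62 (without Mir99a), and that of Mir195a to 0.17 (TMM) and 0.23 (DESeq2). Mir503 missed the threshold under 5 alternatives. Of 148 alternative values, 111 were labelled as unchanged. For ratios between pups this meant the same direction and call, and for shares and other ratios a move of less than the SD. Counts of called loci or members had to stay within a set fold of the main count. The rise from 3 to 4 members called higher with TMM and DESeq2 is thus among the 111. Part of the 111 could not come out otherwise. With 2 pups, leaving out 1 always moves a mean by less than the SD. Counting both strands cannot change ratios between members, which had no reads on the opposite strand. Leaving out a pup leaves no ratio between pups. No paired analysis was possible because there is 1 group. Depth does not limit the members, which have at least 1875 counts each; reads that map to several places do limit the miR-16 loci.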
